A study of Mus musculus with 8 samples.

Results

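The genes described here are 10 regulators of tissue-specific alternative splicing, taken by name from the 55385 genes of the count table: *Mbnl1*, *Mbnl2*, *Mbnl3*, *Rbfox2*, *Celf1*, *Ptbp1*, *Ptbp2*, *Esrp1*, *Esrp2* and *Tra2b*. Their transcripts were measured by RNA-Seq of poly(A)-selected RNA from R1 mESCs, a wild-type mouse embryonic stem cell line. All cells were kept on laminin in N2B27 medium with LIF and the inhibitors known as 2i, received a lentiviral hairpin over 2 days of infection, and were put under puromycin for a further 3 days. The hairpin was shRNA1, directed at the 3′ UTR of *Eftud2* (3 libraries), shRNA2, directed at its coding sequence (3 libraries), or nt-shRNA, a non-targeting control (2 libraries), and *Eftud2* encodes a GTPase of the U5 snRNP that the spliceosome needs for its rearrangements. The labels call the libraries of a group biological replicates of the same cell line.

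Core spliceosome components act on nearly every intron, whereas the 10 regulators bind short motifs in particular transcripts and decide which optional exons are kept. MBNL proteins bind YGCY-type motifs and favour the splicing patterns of differentiated tissues, RBFOX2 binds UGCAUG, and CELF1 binds GU-rich sequence and often acts against MBNL proteins on the same exons. PTBP1 is a pyrimidine-tract binding repressor of most non-neuronal cells, PTBP2 is its relative in neurons, ESRP1 and ESRP2 maintain epithelial splicing patterns, and TRA2B binds GAA-rich exonic enhancers. Several of these genes also control their own splicing, including through exons whose inclusion or skipping sends the transcript to nonsense-mediated decay (NMD).

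*Eftud2* KD was accompanied by opposite movements of *Esrp1* and *Esrp2*, of *Mbnl1* and *Mbnl2*, and of *Tra2b* and *Tra2a*, but not of *Ptbp1* and *Ptbp2*. With shRNA2, *Esrp1* fell to 0.294 of its nt-shRNA level while *Esrp2* rose 1.72-fold, and *Mbnl2* fell to 0.627 of its level while *Mbnl1* rose 1.74-fold. *Tra2b* rose 1.48-fold while its relative *Tra2a*, which is not among the 10 genes, fell to 0.695 of its level. Changes with shRNA1 were smaller for *Esrp1*, *Esrp2*, *Mbnl1*, *Mbnl2* and *Tra2b*, and a direct test between the hairpins called each of these 5 differences. That test called 7 of the 10 genes and 35.6% of all tested genes. With shRNA1 the calls of *Mbnl1*, *Mbnl2*, *Esrp2* and *Tra2b* depended on single libraries, as given below. *Rbfox2* passed the test in no comparison.

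All 10 genes passed the filter on low counts, and a gene was called at a Benjamini-Hochberg adjusted p under 0.05 in edgeR's quasi-likelihood test over all 17445 genes tested. With shRNA1 against nt-shRNA, 4 of the 10 were higher and 3 lower, where 30.9% of all tested genes were called (13.8% higher and 17.1% lower). With shRNA2 against nt-shRNA, 5 were higher and 2 lower, where 55.9% of all tested genes were called (27.2% higher and 28.7% lower). With shRNA2 against shRNA1, 5 were higher and 2 lower, where 35.6% of all tested genes were called (16.9% higher and 18.7% lower). The median absolute log2 fold change of the 10 was 0.27, 0.51 and 0.37 in these comparisons, against 0.22, 0.37 and 0.22 over all tested genes. The first 2 comparisons share the nt-shRNA libraries, and the count with shRNA1 depended on single libraries: it was 0 without nt-shRNA replicate 1 (5 of the 10 at an unadjusted p under 0.05), 2 without nt-shRNA replicate 2, 3 without shRNA1 replicate 1, 2 without shRNA1 replicate 2 and 4 without shRNA2 replicate 1, and DESeq2 on all libraries called 4.

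The libraries held 19569525 to 29871048 counts, so 3 counts correspond to 0.1045 to 0.1481 CPM (TMM-normalised counts, scaled to a common library total), and the 10 genes had between 136 (*Esrp1*) and 14394 (*Ptbp1*) counts in a library. *Eftud2* stood at 262.3 and 255.7 CPM with nt-shRNA, 231.9, 229.2 and 225.3 CPM with shRNA1, and 198.2, 202.1 and 234.7 CPM with shRNA2, so that every KD library lay below both controls. Its log2 fold change was -0.18 with shRNA1 (SE 0.0678, adjusted p = 0.0514) and -0.29 with shRNA2 (SE 0.0678, adjusted p = 0.00122). The shRNA1 value passed the test in 6 of 15 alternative settings, among them DESeq2 (0.0485), the fit without the filter on low counts (0.03), without shRNA2 replicate 2 (0.0415) and without shRNA2 replicate 3 (0.0215). Over the 15 settings this log2 fold change ran from -0.211 to -0.065, and the highest adjusted p was 0.498. The direct difference between the hairpins was -0.11 on the log2 scale (adjusted p = 0.164, and 0.0127 without shRNA2 replicate 3). The summed level of 10 pluripotency markers was 7211 to 7345 CPM with nt-shRNA, 7363 to 7613 CPM with shRNA1 and 7457 to 7896 CPM with shRNA2, with no marker at 0. Single markers moved both ways within this sum: of the 10, all tested, 5 were called higher and 2 lower with shRNA1, and 7 higher and 2 lower with shRNA2. Of all tested genes, 30.9% were called with shRNA1 and 55.9% with shRNA2. With shRNA2 *Klf4* was 2.49-fold and *Nanog* 1.70-fold higher (adjusted p = 1.5e-10 and 1.3e-08), while *Dppa5a* was at 0.513 and *Pou5f1* at 0.820 of the nt-shRNA level (adjusted p = 3.9e-08 and 8.6e-04), examples chosen after their values were seen. Among markers of other cell types, 6 ectoderm and neural progenitor genes summed to 107.5 to 122.0, 90.3 to 97.6 and 51.1 to 70.2 CPM in the same order of groups, and 6 trophoblast genes to 97.8 to 101.0, 81.4 to 93.9 and 64.8 to 75.1 CPM. In the trophoblast sum most of the difference lay in the keratin gene *Krt7* (means of 29.3 CPM with nt-shRNA and 4.88 CPM with shRNA2, adjusted p = 2.1e-10), while *Tfap2c*, the most abundant of the 6, had means of 65.4 and 62.9 CPM (adjusted p = 0.53). Endoderm markers summed to 20.03 to 20.4, 18.9 to 22.3 and 15.02 to 17.3 CPM, and fibroblast markers to 7.87 to 8.25, 9.74 to 11.2 and 8.51 to 9.96 CPM, so the endoderm sum was lowest with shRNA2 and the fibroblast sum was above the controls in every KD library. Mesoderm markers summed to 26.3 to 32.6 CPM over all libraries, with overlapping groups. In such bulk libraries a change in the number of cells of a type and a change in RNA per cell cannot be told apart, and the part of the marker changes in the results that follow was not tested.

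**Figure D1:**
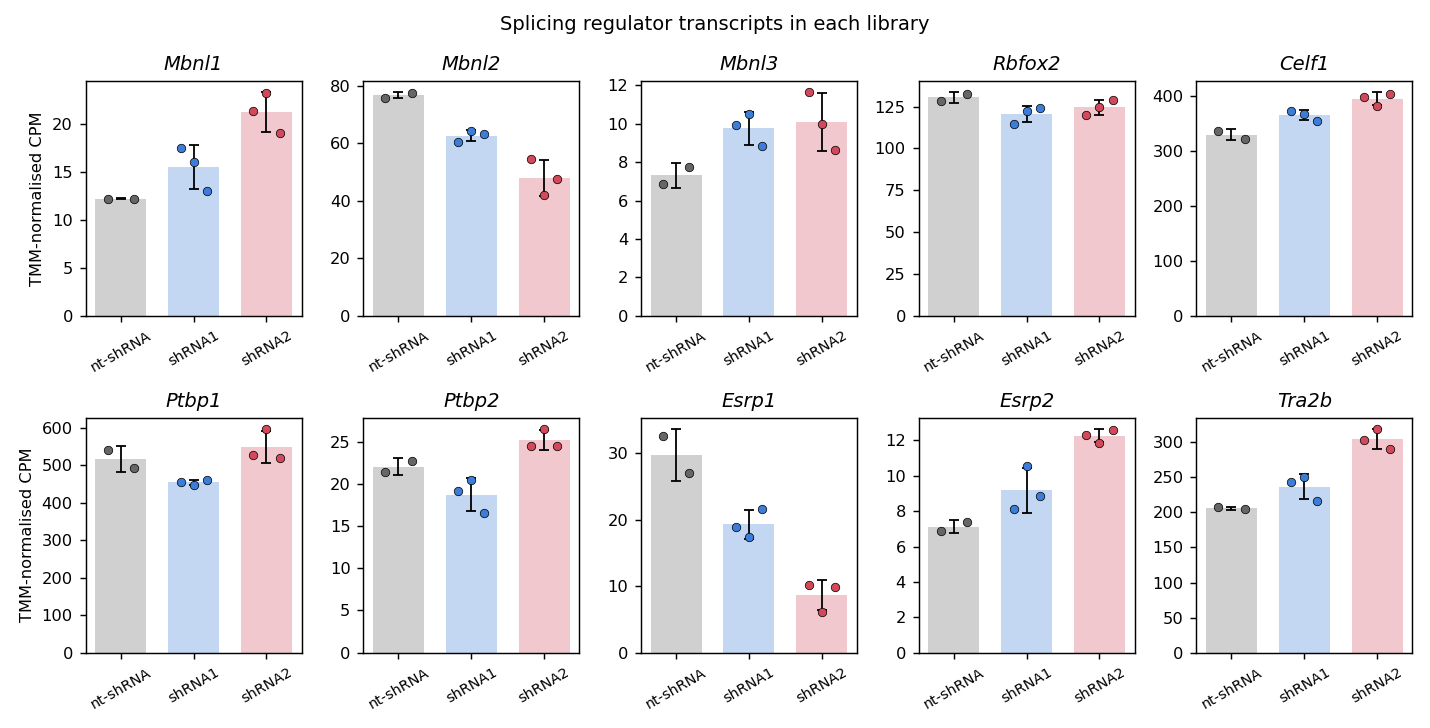
Level of each splicing regulator in TMM-normalised CPM (counts scaled between libraries by edgeR) in nt-shRNA (n = 2), shRNA1 (n = 3) and shRNA2 (n = 3). Points are libraries, bars are means and error bars are SD; *Esrp1* runs from 32.5 CPM in a control to 6.13 CPM in an shRNA2 library, while the *Rbfox2* libraries stay between 114.9 and 132.6 CPM.

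**Figure D2:**
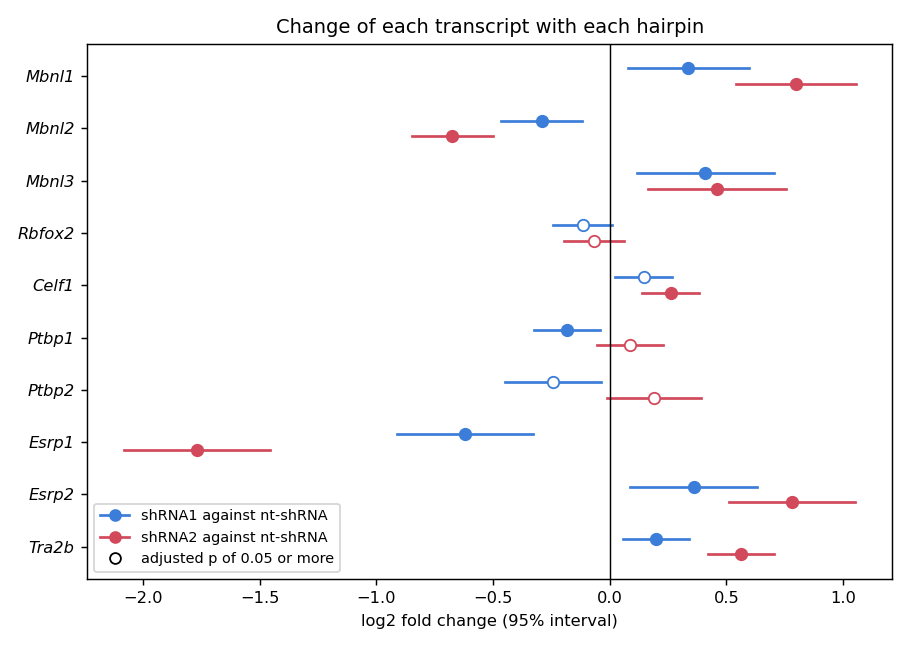
Log2 fold change of each regulator with shRNA1 (blue) and shRNA2 (red) against nt-shRNA, with its 95% interval from the edgeR fit. Filled points passed an adjusted p of 0.05; *Esrp1* lies furthest from 0, at -0.62 and -1.77, and related genes lie on opposite sides of 0 for *Esrp1* and *Esrp2* and for *Mbnl1* and *Mbnl2*.

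Levels per kilobase of exon differed widely between the 10 genes in nt-shRNA cells. *Ptbp1* was the most abundant, at 108.8 ± 7.19 CPM per kb (SD, n = 2), followed by *Celf1* (39.1 ± 1.21), *Tra2b* (22.3 ± 0.208), *Rbfox2* (16.0 ± 0.379), *Mbnl2* (6.39 ± 0.0909) and *Esrp1* (4.72 ± 0.617). *Ptbp2* (2.40 ± 0.107), *Esrp2* (1.64 ± 0.0857), *Mbnl3* (0.837 ± 0.0736) and *Mbnl1* (0.652 ± 0.00174) were lowest. No neighbours in this order overlapped in their control libraries. The order rests on the length of all annotated exons of a gene together, which is 18717 bases for *Mbnl1* and 4740 bases for *Ptbp1*, and a gene whose cells use short forms of a long annotation appears low on this scale.

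The question for each family was whether its members moved together with each hairpin. In the muscleblind family, which supports the splicing programmes of muscle, brain and other differentiated tissues, *Mbnl1* and *Mbnl2* moved in opposite directions. *Mbnl1* (chromosome 3, 60472830 to 60629750, GRCm38) stood at 12.2 and 12.2 CPM with nt-shRNA, 17.5, 16.0 and 13.0 CPM with shRNA1, and 21.4, 23.2 and 19.1 CPM with shRNA2. All shRNA2 libraries were above all shRNA1 libraries, which were above both controls. It rose by a log2 of 0.34 with shRNA1 (SE 0.124, adjusted p = 0.0456) and 0.80 with shRNA2 (SE 0.123, adjusted p = 2.0e-05), and the direct difference was 0.46 (SE 0.108, adjusted p = 0.00281). The shRNA1 call was lost in DESeq2 (adjusted p = 0.0609), without nt-shRNA replicate 1 (0.172) or 2 (0.153), without shRNA1 replicate 1 (0.195) or 2 (0.128) and without shRNA2 replicate 1 (0.0589), with log2 fold changes of 0.24 to 0.34.

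*Mbnl2* (chromosome 14, 120275669 to 120431697) was the most abundant member of its family per kilobase. Its levels were 75.9 and 77.5 CPM with nt-shRNA, 60.4, 64.2 and 63.4 CPM with shRNA1, and 54.6, 42.1 and 47.6 CPM with shRNA2, again with no overlap between the 3 groups. It fell by 0.29 on the log2 scale with shRNA1 (SE 0.0823, adjusted p = 0.011) and by 0.67 with shRNA2 (SE 0.0831, adjusted p = 1.5e-06), with a direct difference of -0.38 (SE 0.0765, adjusted p = 8.2e-04). The shRNA1 call was lost without nt-shRNA replicate 1 (adjusted p = 0.0575) or 2 (0.0767), and when libraries were scaled by their totals alone (log2 -0.18, adjusted p = 0.117).

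*Mbnl3* (chromosome X, 51117269 to 51206532), the member best known from placenta and immature muscle, had 6.86 and 7.77 CPM with nt-shRNA, 9.92, 10.5 and 8.84 CPM with shRNA1, and 11.6, 9.97 and 8.63 CPM with shRNA2. Both sets of KD libraries lay above the controls and overlapped each other. It rose by 0.41 on the log2 scale with shRNA1 (SE 0.14, adjusted p = 0.0329) and by 0.46 with shRNA2 (SE 0.141, adjusted p = 0.0094), and the 95% interval of the direct difference ran from -0.21 to 0.31. The shRNA2 call was lost without nt-shRNA replicate 1 (adjusted p = 0.0995) or shRNA2 replicate 1 (0.0635). The shRNA1 call was lost in DESeq2 (0.0525) and without nt-shRNA replicate 1 (0.235), nt-shRNA replicate 2 (0.059), shRNA1 replicate 1 (0.0838) or shRNA1 replicate 2 (0.121).

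The share of *Mbnl2* in the summed level per kilobase of the 3 family members was 81.1 ± 0.557% (SD, n = 2) with nt-shRNA, 72.9 ± 2.43% (n = 3) with shRNA1 and 63.6 ± 3.59% (n = 3) with shRNA2. The share of *Mbnl1* was 8.28 ± 0.152%, 11.5 ± 1.6% and 18.1 ± 2.58%. The sum itself was 7.77 to 8.0 CPM per kb in the controls, 6.99 to 7.41 with shRNA1 and 5.89 to 7.02 with shRNA2, so the rise of *Mbnl1* and *Mbnl3* was smaller than the fall of *Mbnl2* on this scale. *Mbnl1* and *Mbnl2* carry a near-identical optional exon of 54 bases, known as a target of MBNL proteins themselves and as a part that affects their place in the nucleus. It is shown because it is common to this pair of genes that moved in opposite directions: the annotation skips it in 6 of 10 spanning transcripts of *Mbnl1* (chr3:60614683-60614736, + strand) and in 3 of 6 of *Mbnl2* (chr14:120395712-120395765, + strand). Of its bases, 46 are identical (85.2%), and capitals mark the 8 positions that differ.
Mbnl1 exon: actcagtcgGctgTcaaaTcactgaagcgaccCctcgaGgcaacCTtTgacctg
Mbnl2 exon: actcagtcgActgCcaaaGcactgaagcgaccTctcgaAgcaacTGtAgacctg
The gene counts do not separate transcripts with the exon from those without it, so its inclusion was not measured here.

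*Rbfox2* and *Celf1* are broadly expressed regulators for which the question was whether the KD reached them at all. *Rbfox2* (chromosome 15, 77078990 to 77307004) stood at 128.3 and 132.6 CPM with nt-shRNA, 114.9, 122.3 and 123.9 CPM with shRNA1, and 120.2, 124.6 and 128.8 CPM with shRNA2. The shRNA1 libraries were slightly below the controls and the shRNA2 libraries overlapped them. Its log2 fold change was -0.12 with shRNA1 (95% interval -0.24 to 0.01, adjusted p = 0.159) and -0.07 with shRNA2 (-0.20 to 0.06, adjusted p = 0.363). With its high counts (2477 to 3807 in a library) the intervals leave room for only small differences. Its relatives *Rbfox1* and *Rbfox3*, both characteristic of neurons, had at most 4 and 6 counts in a library and were not tested.

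*Celf1* (chromosome 2, 90940382 to 91019497) had 337.5 and 323.0 CPM with nt-shRNA, 373.6, 367.2 and 355.3 CPM with shRNA1, and 399.6, 382.5 and 404.9 CPM with shRNA2. The groups did not overlap, yet their means lay within a 1.20-fold range. It rose by 0.26 on the log2 scale with shRNA2 (SE 0.0588, adjusted p = 9.2e-04), while the value with shRNA1 was 0.15 (SE 0.0587, adjusted p = 0.0661) and the direct difference 0.12 (SE 0.0523, adjusted p = 0.0945). The shRNA1 value passed the test in 5 of 15 alternative settings, among them without shRNA1 replicate 3 (adjusted p = 0.0319) and without shRNA2 replicate 2 (0.0483). Of the other CELF genes, *Celf5* rose with shRNA2 (log2 0.51, SE 0.108, adjusted p = 5.5e-04) from 12.9 to 13.7 CPM in the controls to 16.8 to 20.3 CPM. *Celf2*, *Celf3* and *Celf4* passed neither test against nt-shRNA, with log2 fold changes between -0.17 and 0.17, and the *Celf3* values, at 0.395 to 0.825 CPM, turned sign without nt-shRNA replicate 1 (0.47 with shRNA1 and 0.39 with shRNA2). *Celf6* had 2 to 13 counts in a library and was not tested.

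PTBP1 and PTBP2 are known for an exchange during neuronal differentiation, in which PTBP1 falls and PTBP2 protein appears. Neither hairpin gave opposite changes in this pair: both genes were lower with shRNA1 than with shRNA2. *Ptbp1* (chromosome 10, 79854427 to 79864771) had 539.6 and 491.4 CPM with nt-shRNA, 454.0, 446.7 and 461.4 CPM with shRNA1, and 527.9, 596.3 and 519.3 CPM with shRNA2. The shRNA1 libraries were below all others, and the shRNA2 libraries overlapped the controls. The direct difference was 0.27 on the log2 scale (SE 0.0606, adjusted p = 0.00196). Against nt-shRNA the value was -0.18 with shRNA1 (SE 0.0674, adjusted p = 0.0454) and 0.09 with shRNA2 (95% interval -0.05 to 0.23, adjusted p = 0.282), and the latter was 0.18 and called with library totals alone as scaling (adjusted p = 0.0216). The shRNA1 call held in 6 of 15 alternative settings, was lost with library totals alone as scaling (log2 -0.07, adjusted p = 0.425), and was lost without nt-shRNA replicate 1 (0.403), shRNA1 replicate 1 (0.0976), shRNA1 replicate 2 (0.124) or shRNA2 replicate 1 (0.0743). Of the exon bases of *Ptbp1*, 20.7% overlap genes on the opposite strand, and fragments there were not counted for either gene.

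*Ptbp2* (chromosome 3, 119718742 to 119784466) had 21.4 and 22.8 CPM with nt-shRNA, 19.2, 20.4 and 16.6 CPM with shRNA1, and 24.5, 26.5 and 24.5 CPM with shRNA2. Each group was separate, with the controls in the middle. The direct difference was 0.43 (SE 0.0889, adjusted p = 0.00102), whereas the values against nt-shRNA, -0.24 with shRNA1 (SE 0.098, adjusted p = 0.0675) and 0.19 with shRNA2 (SE 0.0969, adjusted p = 0.104), did not pass. With library totals alone as scaling, the shRNA2 value was 0.28 (adjusted p = 0.0237). *Ptbp3*, the third family member, had 128.6 to 153.0 CPM over all libraries and passed neither test against nt-shRNA (log2 0.09 and 0.10, adjusted p = 0.391 and 0.277). Its shRNA2 value was 0.19 and called when library totals alone set the scaling (adjusted p = 0.0464). *Ptbp1* held 84.2 ± 1.21% of the family's level per kilobase with nt-shRNA (SD, n = 2), 81.9 ± 1.56% with shRNA1 and 83.9 ± 1.63% with shRNA2 (n = 3 each), and *Ptbp2* held 1.55 to 2.01% in every library.

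An exon of 34 bases ties the pair together and is shown for that reason. PTBP1 is known to promote its skipping in both transcripts, which shifts the reading frame and leads to NMD. The annotation skips it in 2 of 5 spanning transcripts of *Ptbp1* (chr10:79862014-79862047, + strand) and in 2 of 5 of *Ptbp2* (chr3:119724612-119724645, - strand). The exons share 26 bases (76.5%), and capitals mark the 8 positions that differ.
Ptbp1 exon: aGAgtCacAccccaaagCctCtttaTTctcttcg
Ptbp2 exon: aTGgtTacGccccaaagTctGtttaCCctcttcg
Counts per gene include fragments from NMD transcripts, so a level in CPM is not a level of the coding form.

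The ESRP proteins are epithelial regulators that, among other targets, select the epithelial form of *Fgfr2*. *Esrp1* showed the largest change of the 10 genes with either hairpin. *Esrp1* (chromosome 4, 11331933 to 11386783) had 32.5 and 27.0 CPM with nt-shRNA, 18.9, 17.4 and 21.6 CPM with shRNA1, and 10.2, 6.13 and 9.87 CPM with shRNA2. The 3 groups were fully separate. It fell by 0.62 on the log2 scale with shRNA1 (SE 0.14, adjusted p = 0.00236) and by 1.77 with shRNA2 (SE 0.15, adjusted p = 1.3e-08), and the direct difference was -1.15 (SE 0.143, adjusted p = 1.1e-05). The shRNA1 call was lost in 1 of 15 alternative settings, without nt-shRNA replicate 1 (log2 -0.48, adjusted p = 0.0631), and the other calls in none.

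*Esrp2* (chromosome 8, 106130319 to 106136974) had 6.86 and 7.39 CPM with nt-shRNA, 8.12, 10.6 and 8.84 CPM with shRNA1, and 12.3, 11.9 and 12.6 CPM with shRNA2. These groups were also separate, in the reverse order. It rose by 0.36 with shRNA1 (SE 0.131, adjusted p = 0.0431) and by 0.78 with shRNA2 (SE 0.129, adjusted p = 4.3e-05), with a direct difference of 0.42 (SE 0.113, adjusted p = 0.00708). The shRNA1 call was lost in DESeq2 (adjusted p = 0.078), without the filter on low counts (0.0744), and without nt-shRNA replicate 1 (0.233) or 2 (0.0986), shRNA1 replicate 2 (0.211) or shRNA2 replicate 1 (0.0585). Of its exon bases, 7.79% overlap genes on the opposite strand.

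*Esrp1* thus made up 74.1 ± 3.51% of the summed ESRP level per kilobase with nt-shRNA (SD, n = 2), 59.2 ± 5.27% with shRNA1 (n = 3) and 32.5 ± 5.48% with shRNA2 (n = 3). The sum was 5.99 to 6.74, 4.88 to 5.46 and 3.71 to 4.47 CPM per kb in the same order. With shRNA2 *Esrp2* was the more abundant of the pair per kilobase in every library, whereas with nt-shRNA and with shRNA1 *Esrp1* was.

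Of 24 genes of epithelial junctions, keratins and their regulators, all tested, 12 were lower and 1 higher with shRNA1, and shRNA2 gave 17 lower and 1 higher. The called share was 54.2% and 75.0%, beside 30.9% and 55.9% of all tested genes, with median log2 fold changes of -0.30 and -0.63 against -0.01 and 0.00 over all tested genes. The lowest called gene with shRNA2 was *Cldn7*, a tight junction claudin, which fell from 59.9 and 55.5 CPM with nt-shRNA to 12.2, 9.29 and 18.1 CPM (log2 -2.13, SE 0.155, adjusted p = 2.0e-09). The higher gene with shRNA2 was *Spint1*, an inhibitor of membrane serine proteases, which rose from 97.1 and 93.9 CPM to 109.6, 120.8 and 121.3 CPM (log2 0.30, SE 0.0723, adjusted p = 0.00182). It did not pass with shRNA1 (adjusted p = 0.163), where the higher gene was *Grhl2*, an epithelial transcription factor named after its values were seen, which rose from 8.81 and 9.55 CPM to 12.5, 13.0 and 13.1 CPM (log2 0.48, SE 0.117, adjusted p = 0.00391, and 0.0608 without nt-shRNA replicate 1). Of 14 genes of mesenchymal character (transcription factors, ligands and the structural genes *Vim*, *Fn1* and *Cdh2*), 12 were tested, of which shRNA1 gave 2 higher and 2 lower, and shRNA2 gave 6 higher and 4 lower (33.3% and 83.3% called, beside 30.9% and 55.9% of all tested genes). The count with shRNA2 was 7 of the 12 in DESeq2 and without nt-shRNA replicate 1, nt-shRNA replicate 2 or shRNA2 replicate 2. The lower genes with shRNA1 were *Vim* and *Fn1*, an intermediate filament and a matrix protein (log2 -0.65 and -0.35, adjusted p = 2.8e-05 and 0.00132), named after their values were seen. The higher genes, also named afterwards, were *Zeb1* and *Tcf4* (log2 0.42 and 0.19, adjusted p = 0.00215 and 0.0498), and DESeq2 called 1 higher gene. With shRNA2 *Vim* did not pass (log2 -0.04, adjusted p = 0.735), while *Fn1* was lower (log2 -0.86, adjusted p = 1.4e-08). *Tgfb2*, a ligand that drives the loss of epithelial character, stood at 0.487 and 0.557 CPM with nt-shRNA, 0.406, 0.543 and 0.606 CPM with shRNA1, and 1.40, 2.30 and 1.56 CPM with shRNA2. It rose with shRNA2 (log2 1.74, SE 0.313, adjusted p = 1.1e-04), while the shRNA1 libraries overlapped the controls (adjusted p = 0.999). *Foxc2*, a transcription factor of mesenchyme, had 1.24 and 0.941 CPM with nt-shRNA and 0.651, 0.316 and 0.780 CPM with shRNA2 (log2 -0.90, SE 0.361, adjusted p = 0.0411). This call was lost in DESeq2 (0.154), with library totals alone as scaling (0.0641), and without shRNA2 replicate 1 (0.0595) or 2 (0.171). The call was also lost without nt-shRNA replicate 1, where the *Foxc2* log2 fold change with shRNA2 was -0.69. The ectoderm and neural progenitor markers and the trophoblast markers, whose sums were also lowest with shRNA2 and highest with nt-shRNA, were given above, and their part in the *Esrp1* result was not tested.

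TRA2B and TRA2A are SR-like activators that bind the same GAA-rich enhancers. *Tra2b* (chromosome 16, 22244549 to 22266005) had 207.4 and 204.7 CPM with nt-shRNA, 243.1, 250.3 and 216.6 CPM with shRNA1, and 302.8, 319.0 and 290.8 CPM with shRNA2. All 3 groups were separate. It rose by 0.20 on the log2 scale with shRNA1 (SE 0.0674, adjusted p = 0.0306) and by 0.56 with shRNA2 (SE 0.0679, adjusted p = 1.1e-06), with a direct difference of 0.36 (SE 0.06, adjusted p = 1.6e-04). The shRNA1 call was lost without nt-shRNA replicate 1 (adjusted p = 0.124) or 2 (0.152) and without shRNA1 replicate 1 (0.0932) or 2 (0.142).

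*Tra2a* (chromosome 6, 49243924 to 49264033) had 429.4 and 394.8 CPM with nt-shRNA, 316.1, 300.8 and 289.6 CPM with shRNA1, and 291.2, 269.9 and 298.6 CPM with shRNA2. Both sets of KD libraries lay below the controls and overlapped each other. It fell by 0.45 with shRNA1 (SE 0.0642, adjusted p = 3.8e-05) and by 0.52 with shRNA2 (SE 0.0642, adjusted p = 1.3e-06). *Tra2b* made up 27.4 ± 0.993% of the summed level of the pair per kilobase with nt-shRNA (SD, n = 2), 37.0 ± 1.30% with shRNA1 and 44.4 ± 2.43% with shRNA2 (n = 3 each).

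Both TRA2 genes carry an exon with a stop codon that the annotation places only in NMD transcripts, and TRA2 proteins are known to promote its inclusion in *Tra2b*. The coding stretch of each exon, up to and including its stop codon, is shown because it is what removes such transcripts from the coding pool. In *Tra2b* it covers 81 bases (chr16:22259181-22259261, - strand) of an exon of 276 bases, and in *Tra2a* 144 bases (chr6:49252965-49253108, - strand) of an exon of 306 bases. Capitals mark the stop codon.
Tra2b exon: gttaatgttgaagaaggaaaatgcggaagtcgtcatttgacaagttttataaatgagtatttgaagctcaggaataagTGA
Tra2a exon: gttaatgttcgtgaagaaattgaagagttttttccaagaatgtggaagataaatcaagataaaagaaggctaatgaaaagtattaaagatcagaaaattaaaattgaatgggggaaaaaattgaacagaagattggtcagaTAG
The rise of *Tra2b* and the fall of *Tra2a* were measured over all their exons, and the inclusion of these exons was not measured here.

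Ratios between related genes within a library do not depend on how libraries are scaled to each other. The log2 ratio of *Esrp1* to *Esrp2* per kilobase was 1.71 and 1.33 with nt-shRNA, 0.68, 0.18 and 0.75 with shRNA1, and -0.81, -1.49 and -0.89 with shRNA2. The log2 ratio of *Mbnl1* to *Mbnl2* was -3.28 and -3.31 with nt-shRNA, -2.43, -2.64 and -2.93 with shRNA1, and -1.99, -1.50 and -1.97 with shRNA2. For *Tra2b* to *Tra2a* it was -1.46 and -1.36 with nt-shRNA, -0.79, -0.68 and -0.83 with shRNA1, and -0.35, -0.17 and -0.45 with shRNA2. In these 3 pairs the groups did not overlap, and the ratio with shRNA1 lay between those with nt-shRNA and with shRNA2. How many other genes or gene pairs had separate groups was not counted. The mean ratios differed from nt-shRNA by -0.98 and -2.58 (*Esrp1* to *Esrp2*, shRNA1 and shRNA2), 0.62 and 1.47 (*Mbnl1* to *Mbnl2*), and 0.65 and 1.09 (*Tra2b* to *Tra2a*) on the log2 scale. The *Ptbp1* to *Ptbp2* ratio overlapped between all groups, with differences of 0.06 and -0.10. Exact two-sided permutation tests over libraries gave p = 0.1 to 0.7 over 12 tests (Benjamini-Hochberg adjusted 0.15 to 0.70), and 0.1 is the smallest p these group sizes allow.

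**Figure D3:**
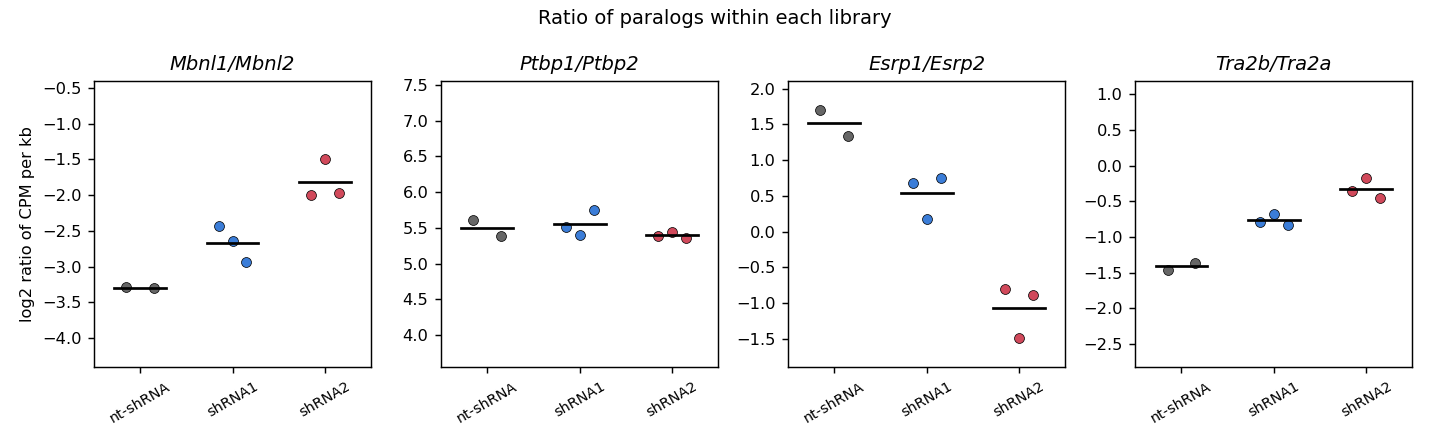
Log2 ratio of CPM per kb between related genes in each library (points) with the group mean (line); every panel spans the same range of 4 log2 units around its own centre. The groups are separate for *Mbnl1*/*Mbnl2*, *Esrp1*/*Esrp2* and *Tra2b*/*Tra2a*, and overlap for *Ptbp1*/*Ptbp2*, whose ratio stays between 5.36 and 5.75.

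A wider list of 40 other RNA-binding splicing regulators, the relatives named above included, was compared to place the 10 genes. Of these, 34 were tested, and 5 were higher and 9 lower with shRNA1, 7 higher and 13 lower with shRNA2, and 3 higher and 10 lower with shRNA2 against shRNA1. The called share was 41.2%, 58.8% and 38.2%, beside 30.9%, 55.9% and 35.6% of all tested genes. Its median log2 fold change was 0.02 with shRNA1 and -0.13 with shRNA2, where that of the 10 genes was 0.015 and 0.225. Scaling by library totals alone gave 7 higher and 6 lower in the wider list with shRNA1, and 9 and 9 with shRNA2. Between hairpins this scaling gave 2 higher and 13 lower.

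Apart from the relatives, the highest called values with shRNA2 included the neuronal KH-domain regulators *Nova1* (log2 0.64, SE 0.19, adjusted p = 0.00741) and *Nova2* (0.52, SE 0.0894, adjusted p = 7.0e-05). *Nova2* had 18.6 and 20.3 CPM with nt-shRNA and 26.7, 27.5 and 29.5 CPM with shRNA2, and it also rose with shRNA1 (0.35, adjusted p = 0.00587). *Rbm4* (0.47, SE 0.144, adjusted p = 0.00931) and *Matr3*, a nuclear matrix protein that works with PTBP1 (0.43, SE 0.0777, adjusted p = 1.2e-04), followed. Without nt-shRNA replicate 1 the calls of *Nova1* (0.116) and *Rbm4* (0.0678) with shRNA2 and of *Nova2* with shRNA1 (0.0995) were lost. *Matr3* stood at 182.8 CPM in both controls and at 253.4, 236.5 and 248.8 CPM with shRNA2.

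The lowest value of the wider list was that of *Msi1*, a regulator of neural stem cells, which fell from 70.7 and 67.5 CPM with nt-shRNA to 44.5, 43.3 and 52.0 CPM with shRNA1 and 31.3, 29.1 and 37.5 CPM with shRNA2. Its log2 fold change was -0.56 (SE 0.0928, adjusted p = 1.5e-04) and -1.08 (SE 0.0946, adjusted p = 2.0e-08). *Rbm24*, a regulator of muscle splicing, fell by 0.94 with shRNA2 (SE 0.208, adjusted p = 7.8e-04) from a low level of 3.00 and 2.65 CPM. *Rbpms2* fell by 0.68 (SE 0.0602, adjusted p = 2.3e-08) and *Rbms2* by 0.63 (SE 0.0735, adjusted p = 7.5e-07) with shRNA2, and both also fell with shRNA1 (by 0.42 and 0.43, adjusted p = 3.5e-05 and 2.1e-04).

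Because PTBP, NOVA, CELF and RBFOX proteins shape neuronal splicing, 21 neuronal genes were counted as well, of which 17 were tested and some are splicing regulators of the wider list. Each hairpin gave 5 higher genes and 1 lower, so that the called share, 35.3% in both, was close to the background with shRNA1 and below it with shRNA2. Leaving out shRNA1 replicate 2 gave 3 higher and 2 lower with shRNA1. Library totals alone as scaling gave 7 higher and 1 lower with shRNA2. *Gap43*, a growth cone protein, stood at 0.412 and 0.557 CPM with nt-shRNA, 0.722, 0.444 and 0.535 CPM with shRNA1, and 1.58, 2.17 and 1.29 CPM with shRNA2. Its rise with shRNA2 (log2 1.77, SE 0.326, adjusted p = 1.3e-04) was the highest called value of the list, while the shRNA1 libraries overlapped the controls (adjusted p = 0.704). *Stmn2*, a microtubule regulator of neurons, had 82.6 and 92.7 CPM with nt-shRNA, 49.3, 39.2 and 50.2 CPM with shRNA1, and 38.8, 56.8 and 42.2 CPM with shRNA2. It fell with both hairpins (log2 -0.92 and -0.93, adjusted p = 1.3e-05 and 2.3e-06).

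**Figure D4:**
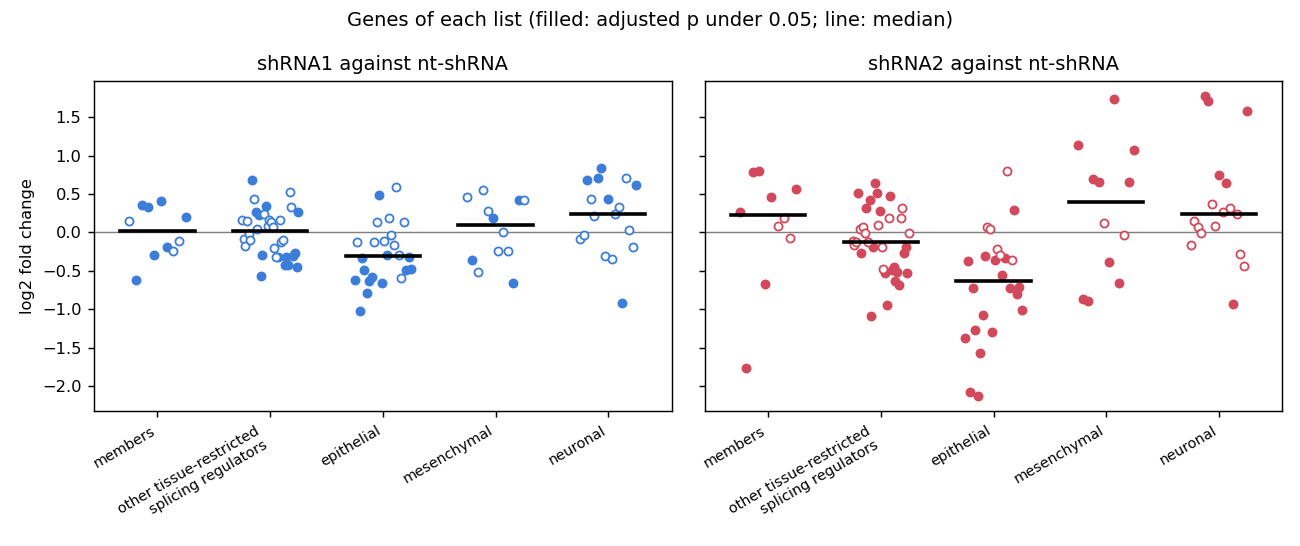
Log2 fold change of every tested gene of the 10 regulators, the wider regulator list, and the epithelial, mesenchymal and neuronal lists with shRNA1 (left) and shRNA2 (right) against nt-shRNA; filled points passed an adjusted p of 0.05 and lines are medians. The epithelial genes lie mostly below 0 (medians -0.30 and -0.63), while the regulators scatter to both sides.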

How the data were processed

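RNA-Seq was analysed for 8 libraries of R1 mESCs (3 shRNA1, 3 shRNA2, 2 nt-shRNA). The authors aligned 100 bp paired-end reads end-to-end with STAR to mm10 (GRCm38) and, per the labels and methods, assigned fragments to GENCODE M24 exons by featureCounts 1.6.2, without strand. The deposited values are raw counts per gene, with no normalization. Fragments overlapping several genes were not counted, so overlapping and antisense genes are uncertain. Symbols were matched by gene ID for 55144 of 55385 genes. Gene coordinates, exon lengths and overlaps between genes came from the deposited count table. The printed exons, their coordinates and the transcript counts around them came from GENCODE M21 on GRCm38.

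Counts were fitted in R 4.3.3 with edgeR 4.0.16 (filterByExpr with a minimum count of 10, TMM, glmQLFit and glmQLFTest, a coefficient per group, no block), with limma 3.58.1 loaded by it, and Benjamini-Hochberg adjustment over 17445 genes. Standard errors came from the F statistic. The code was tested on simulated data first. DESeq2 1.42.0, used by the authors, was an alternative. The others were its size factors, library totals alone, a fit limited to the groups tested, a replicate block, no filter on low counts, a minimum of 10 counts in each library, and each library left out (15 in all). Paralog ratios used exact two-sided permutation tests. Figures were drawn with matplotlib 3.10.9.

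Depth was 19569525 to 29871048 counts per library. Libraries of a group differed beyond sampling noise (chi-square per gene 3.12 to 12.0), so all were counted separately. P-values measure the spread between these cultures of a single cell line. The 10 genes and all lists were chosen with earlier results of these data known. Named genes are the 10, *Eftud2*, the relatives, the 4 highest and 4 lowest called values of the rest of the wider list with shRNA2, and the highest and lowest called value of each other list. *Krt7*, *Tfap2c*, *Klf4*, *Nanog*, *Dppa5a*, *Pou5f1*, *Grhl2*, *Vim*, *Fn1*, *Zeb1*, *Tcf4* and *Raver1* fall outside this rule and were named after their values were seen. Splice junctions were not analysed here.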

Additional observations from a re-analysis of the deposited data

Results flagged for a closer look

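For 7 of the 10 regulators the hairpins themselves differed in the direct edgeR test of shRNA2 against shRNA1, where 35.6% of all 17445 tested genes were called. The log2 difference was 0.46 for *Mbnl1*, -0.38 for *Mbnl2*, 0.27 for *Ptbp1*, 0.43 for *Ptbp2*, -1.15 for *Esrp1*, 0.42 for *Esrp2* and 0.36 for *Tra2b*. All 7 calls held in each of the 15 alternative settings. *Mbnl1*, *Mbnl2*, *Esrp1*, *Esrp2* and *Tra2b* changed in the same direction with both hairpins and further with shRNA2, whereas the values of *Ptbp1* and *Ptbp2* against nt-shRNA were below 0 with shRNA1 and above 0 with shRNA2. The hairpins differ in sequence and in the part of *Eftud2* they target, and the paper reports stronger KD with shRNA2 by qPCR. These differences cannot be told apart here. The *Eftud2* transcript level differed by a log2 of -0.11 between hairpins (95% interval -0.24 to 0.02, adjusted p = 0.164), which does not show that the extent of KD was equal.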

How the results depend on the processing

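Calls of the 10 genes with shRNA2 against nt-shRNA and between hairpins held in all 15 alternative settings, except that *Mbnl3* with shRNA2 was lost in 2 fits that left out a library. With shRNA1 against nt-shRNA, DESeq2 called 4 of the 10 genes, and leaving out a library gave 0 to 8 of them and 2948 to 5903 genes in all. Between hairpins, 5 of 12 mesenchymal and 8 of 17 neuronal genes were called (41.7% and 47.1%, beside 35.6% of all tested genes), DESeq2 called 3 mesenchymal genes, and leaving out a library gave 3 to 5 and 5 to 10 genes. The cause was not tested. Scaling by library totals alone moved the median of all genes by 0.114 (shRNA1) and 0.089 (shRNA2) on the log2 scale and the higher share of calls from 44.7% to 70.5% and from 48.7% to 58.9%; *Rbfox2* with shRNA2 then was 0.022, *Celf3* with shRNA1 0.028 and *Tfap2c* with shRNA2 0.034. Values that turned sign in fits leaving out a library were *Mbnl3* between hairpins (-0.021 and -0.065, range to 0.151), *Celf3* with shRNA1 (0.096 and 0.468, range from -0.504) and shRNA2 (0.388, range from -0.583), *Tgfb2* with shRNA1 (range -0.147 to 0.144; also -0.009 in DESeq2 and -0.004 without the filter), *Tfap2c* with shRNA2 (range -0.125 to 0.007), and the *Ptbp1* to *Ptbp2* ratio with shRNA1 (-0.038 and -0.053, range to 0.172) and shRNA2 (0.01, range from -0.216). None of these values passed a test in any setting tried. Same-numbered libraries did not deviate together (7 pairs, r -0.026 to 0.074). The replicate block gave 2694 higher and 3324 lower genes with shRNA1, 4898 and 5136 with shRNA2, and 3116 and 3402 between hairpins; *Ptbp1* with shRNA1 was -0.17 (adjusted p = 0.0811) and *Ptbp2* with shRNA2 0.24 (adjusted p = 0.03). Depth limits *Celf3* and the untested relatives.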

Other observations

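*Raver1*, which encodes a co-repressor of PTBP1 and was in the wider list, had 0 counts in all 8 libraries. Of its exon bases, 99.7% overlap other annotated genes, and fragments shared between genes were not counted, so its level was not measurable in this table.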
